A study of Homo sapiens with 16 samples.

Results

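The 36 genes described here encode glucose transporters, the enzymes of glycolysis, enzymes and carriers of pyruvate and lactate, the hypoxia-inducible factor subunit HIF1A, and proteins whose genes this factor is known to switch on. They were chosen by name, with earlier results of these data known, and were read in all 16 libraries. Of the 60675 genes in the count table, 19772 had enough counts to be tested, and all 36 were among them. Of the 36, 31 had at least 10 counts in every library. The other 5 were SLC16A3, CA9, NDRG1, ANKRD37 and EGLN1.

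The cells were H9, an established human embryonic stem cell line, carrying an EGFP reporter driven by the REX1 promoter. They were grown in mTeSR1 medium on Matrigel, and every group, the controls included, was transfected with an siRNA. VRTN siRNA (a Dharmacon pool) and SALL4 siRNA were harvested at 48 h, and DSCC1 siRNA and SEPHS1 siRNA at 72 h, with 3 biological replicates each. The controls were an siRNA against Renilla luciferase, here called Luciferase, and a second control siRNA, here called Control, with 2 replicates each and no harvest time in the labels. The treatment protocol also gives a growth time of 3 to 4 days, longer than the 48 h harvest, and the stated harvest times are used here. Enzymatic digestion was used to make the siRNAs to SALL4, DSCC1, SEPHS1 and luciferase, so the VRTN pool differed from them in kind as well as in target. All libraries came from 1 line, and no label names a low-oxygen treatment.

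Glycolysis splits glucose into pyruvate in the cytosol and yields ATP without oxygen. Human embryonic stem cells in culture are known to run this pathway at a high rate and to turn much of the pyruvate into lactate. HIF1A protein is controlled mostly after translation: in normal oxygen the prolyl hydroxylases EGLN1 and EGLN3 mark it for destruction, and in low oxygen it accumulates and, bound to its partner ARNT, switches on genes for glucose uptake, glycolysis, blood vessel growth and pH control. A level of HIF1A mRNA therefore says little about the activity of the factor, which was not measured in these libraries.

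Library totals ran from 18597262 to 28662389 counts, and a floor of 3 counts corresponded to 0.102 to 0.175 CPM (normalised counts relative to library size, TMM-scaled), which covers counting error only. The VRTN transcript was at 21.3 ± 2.24 CPM (SD, n = 3) in the VRTN siRNA libraries and at 143 ± 9.12 CPM (n = 4) in the controls. SEPHS1 fell by 2.75 on the log2 scale in its own knockdown. The falls of SALL4 (log2 fold change -0.36, adjusted p = 0.0562) and DSCC1 (-2.27, adjusted p = 0.486) in theirs did not pass edgeR's quasi-likelihood test, and results from these libraries are those of the libraries labelled SALL4 and DSCC1. Of 10 pluripotency markers, 9 had at least 10 counts in every library and ZFP42, which encodes REX1, had 0 in all 16. Whether the ZFP42 transcript was absent or its reads went uncounted was not tested. The summed level of the 10 was 4960 to 5357 CPM in the VRTN libraries, 4624 to 5346 in the controls and 3732 to 3913 in the SALL4 libraries.

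In the 4 control libraries, the members spanned from abundant enzymes of the middle of glycolysis to hypoxia genes near the detection limit. Levels per kilobase of exon allow genes to be compared only roughly. The length counts every annotated exon of a gene, used in these cells or not, and was 14431 bases for VEGFA and 2981 for GAPDH. By this measure GAPDH stood first at 1143 ± 23.8 CPM per kb (SD, n = 4). ALDOA, the aldolase that splits fructose-1,6-bisphosphate, followed at 687 ± 35.6. ENO1, PGAM1, TPI1 and PKM followed at 261 ± 5.11, 199 ± 15.2, 162 ± 4.65 and 119 ± 14.4 CPM per kb. These 6 enzymes act after the entry steps of the pathway, and all lay above both glucose transporters. SLC2A3, the high-affinity transporter GLUT3, stood at 74.6 ± 19.4 CPM per kb and SLC2A1, the widely expressed GLUT1, at 46.3 ± 9.69.

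Isozymes of the same step differed in level per kilobase, and for the hexokinases the difference was wide. HK1, the hexokinase of most tissues, stood at 25.2 ± 1.54 CPM per kb in the controls and HK2, the hexokinase known as a HIF1A target, at 6.73 ± 1.03. LDHA, the lactate dehydrogenase subunit usually tied to lactate production, stood at 3.15 ± 1.27 CPM per kb, which placed it at rank 21 of the 36. LDHB, the subunit that favours the reverse reaction, stood at 7.75 ± 0.168. This difference depends on the exon lengths, 6210 bases for LDHA and 2983 for LDHB. In CPM the control levels overlapped, at 19.6 ± 7.91 for LDHA and 23.1 ± 0.503 for LDHB. The LDHA value is uncertain, because 6 annotated pseudogenes of LDHA held 9.31% of the counts given to the gene and its pseudogenes together, and how the authors treated reads shared between gene copies is not given in the sources used here.

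Among the hypoxia genes, HIF1A itself stood at 27.0 ± 0.644 CPM per kb and ADM, which encodes the vasodilator peptide adrenomedullin, at 17.9 ± 3.22. VEGFA, the main growth factor for blood vessels, stood at 1.13 ± 0.10. CA9, a cell-surface carbonic anhydrase used as a marker of hypoxic cells, was at the bottom of the order at 0.024 CPM per kb. Neighbours in this order often did not differ beyond their spread: SLC16A1, the lactate and pyruvate carrier MCT1, stood at 46.9 ± 6.59 beside SLC2A1, and HK1 beside GPI, the glucose-6-phosphate isomerase, at 25.1 ± 2.64.

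**Figure D1:**
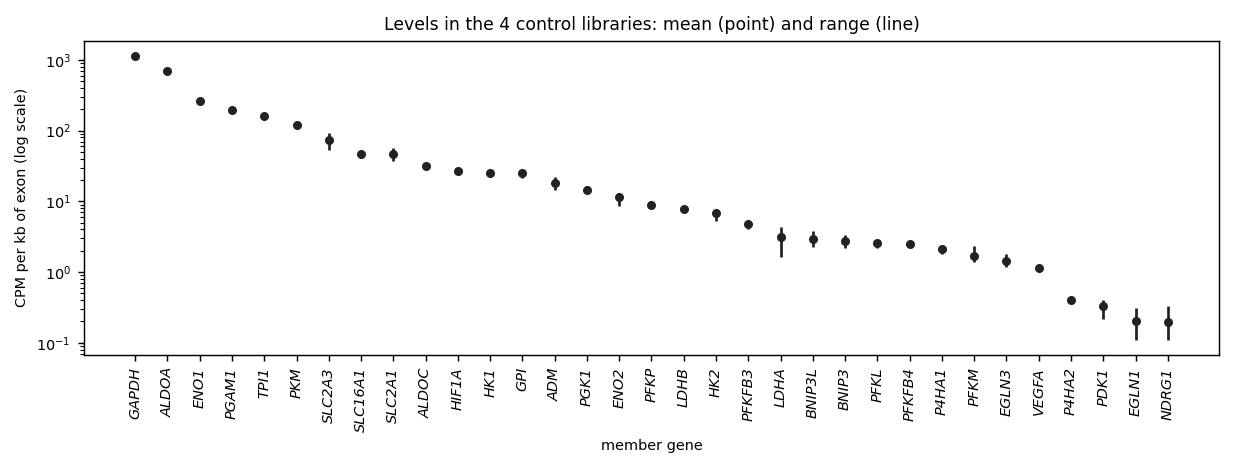
Level of the members in the 4 control libraries, in CPM per kilobase of exon on a log axis, ordered by mean; points are means and lines run from the lowest to the highest library, and genes with a control library at 0 are left out. GAPDH at 1143 and ALDOA at 687 lead, and VEGFA lies near 1.

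After VRTN siRNA, VEGFA and ALDOA fell and no member rose. This was 2 of 36 members called lower at an adjusted p under 0.05 (edgeR's quasi-likelihood test, Benjamini-Hochberg over all 19772 genes), beside 0.683% of all genes called lower and 1.13% called in either direction. The median log2 fold change over the 36 was -0.11, beside 0.02 over all genes tested. At an unadjusted p under 0.05, 7 members were lower and 1 was higher, which is 22.2% of the members beside 9.4% of all genes. All genes include many with low counts. With at least 10 counts in every library, the shares were 25.8% of 31 members beside 12.7% of 11737 genes. Against the controls these shares were 12.9% beside 18.4% for SALL4, 25.8% beside 6.99% for DSCC1 and 38.7% beside 16.5% for SEPHS1 siRNA. In bulk RNA, fewer cells of a type and less RNA per cell cannot be told apart, here and in every result that follows. The labels give no harvest time for the controls. In every comparison against them, the target and the harvest time therefore cannot be told apart either.

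VEGFA (chromosome 6, 43770184 to 43786487, plus strand, GRCh38) measured 6.48, 5.11 and 9.87 CPM in VRTN replicates 1 to 3. It measured 15.9 and 14.8 CPM in the Luciferase libraries and 18.3 and 16.3 in the Control libraries. All 3 VRTN libraries lay below all 4 controls, and replicate 3 was the closest to them. The mean was 7.15 ± 2.45 CPM (SD, n = 3) against 16.3 ± 1.45 (n = 4), 43.8% of the control level. The log2 fold change was -1.18 (SE 0.25, 95% interval -1.70 to -0.67, edgeR adjusted p = 0.00892). The call rested on each of the lower replicates: without VRTN replicate 1 the adjusted p was 0.0749 and without replicate 2 it was 0.1, at log2 fold changes of -1.11 and -0.99. Against the Luciferase libraries alone it was 0.0864.

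ALDOA (chromosome 16, 30064164 to 30070457, plus strand) measured 2104, 2057 and 2281 CPM in the VRTN libraries. It measured 2642 and 2529 CPM in the Luciferase libraries and 2857 and 2734 in the Control libraries. The VRTN libraries were below not only the controls but all 13 other libraries, the lowest of which was a SALL4 library at 2412 CPM. The mean was 2147 ± 118 CPM against 2691 ± 139, 79.8% of the control level. The log2 fold change was -0.32 (SE 0.08, edgeR adjusted p = 0.0414). This call stood just inside the threshold and was lost on leaving out any 1 of the 7 libraries compared, with adjusted p from 0.0526 to 0.223 and log2 fold changes from -0.37 to -0.29.

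**Figure D2:**
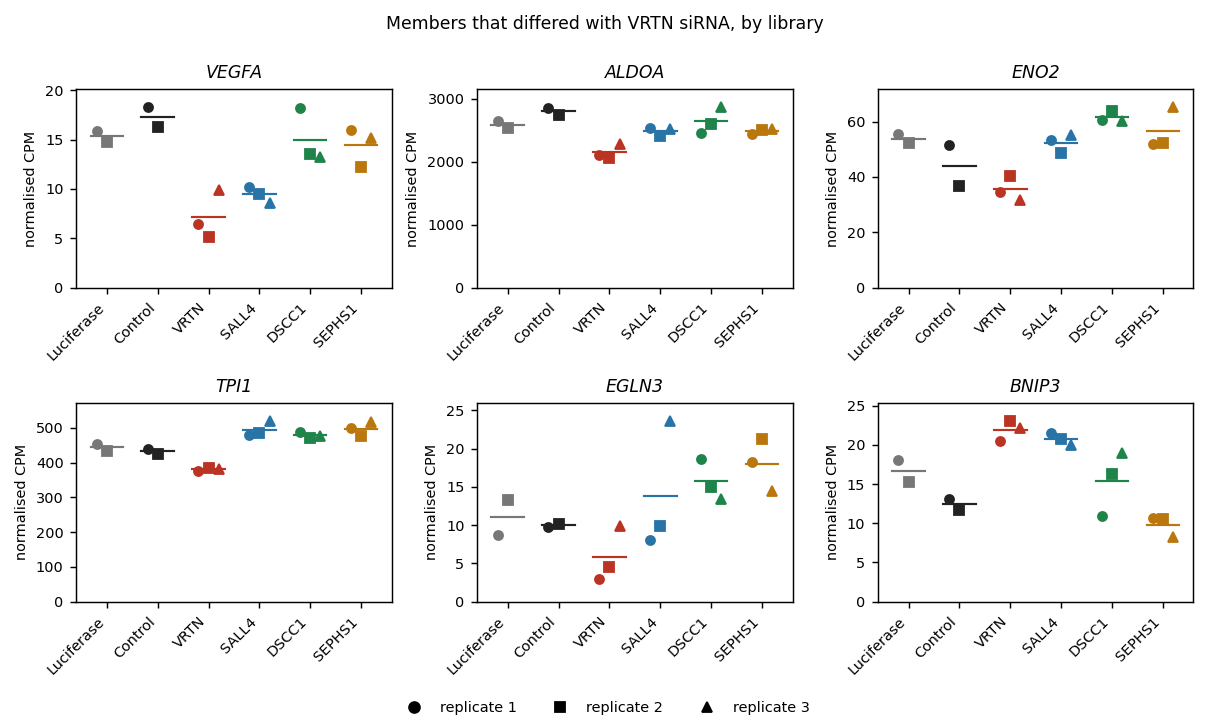
CPM of VEGFA, ALDOA, ENO2, TPI1, EGLN3 and BNIP3 in each of the 16 libraries by group; marker shapes give the replicate number and lines the group means. In VEGFA the 3 VRTN libraries (5.11 to 9.87 CPM) lie below the 4 controls (14.8 to 18.3), and in ALDOA (2057 to 2281 CPM) below every other library.

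The other enzymes of glycolysis did not pass edgeR's test after VRTN siRNA, and several were lower in every VRTN library. DESeq2 called HK1, TPI1 and PKM lower as well, and limma-voom HK1 and PKM. TPI1, the triose phosphate isomerase, measured 376, 384 and 381 CPM in the VRTN libraries and 455, 433, 439 and 425 in the controls (Luciferase 1 and 2, then Control 1 and 2). With ALDOA it was 1 of 2 members below all 13 other libraries, beside 0.799% of all genes, and no member was above them, beside 0.647%. Its log2 fold change was -0.20 (SE 0.09, edgeR adjusted p = 0.445). TPI1 is uncertain, since 4 annotated pseudogenes held 18.1% of the counts given to the gene and its pseudogenes together. Summed over the 15 glycolytic enzymes among the members, the VRTN libraries held 9068 to 9190 CPM and the 13 others 9815 to 10900. GAPDH and ALDOA make up 59.8% of this sum, which does not describe each enzyme. Mean levels after VRTN siRNA and in the controls were 2147 and 2691 CPM for ALDOA, and 754 and 1016 for PKM. For GAPDH they were 3304 and 3407 CPM. The means of HK2, GPI, PGK1 and PGAM1 were not lower after VRTN siRNA.

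HK1, which traps glucose in the cell as glucose-6-phosphate, measured 131, 125 and 108 CPM in the VRTN libraries. The controls held 166, 145, 166 and 159 CPM. The groups did not overlap, and the log2 fold change was -0.39 (SE 0.11, edgeR adjusted p = 0.0872). PKM, the pyruvate kinase of the last step, measured 835, 845 and 581 CPM against 1144, 898, 1098 and 923. Replicate 3 was far below the other VRTN libraries, and the log2 fold change was -0.43 (SE 0.12, adjusted p = 0.0767). ENO2, the enolase typical of neurons, measured 34.7, 40.3 and 31.7 CPM against 55.5, 52.2, 51.4 and 36.8. Its groups overlapped at Control replicate 2, and its log2 fold change was -0.45 (SE 0.15, adjusted p = 0.159).

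In all, the VRTN libraries lay wholly below the controls for 7 of the 36 members, beside 6.68% of all genes, and wholly above for 1, beside 5.27%. The 7 were VEGFA, ALDOA, TPI1, HK1, PKM, PFKP and NDRG1. The glucose transporters were not among them: SLC2A1 differed by 0.08 on the log2 scale (95% interval -0.31 to 0.47) and SLC2A3 by -0.11 (-0.43 to 0.21). GAPDH, the most abundant member, differed by -0.04 (-0.20 to 0.12), and LDHA by -0.01 (-0.59 to 0.57), an interval too wide to exclude a change of the size of ALDOA's. PGK1, which makes the first ATP of the pathway, differed by 0.02 (-0.29 to 0.32).

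**Figure D3:**
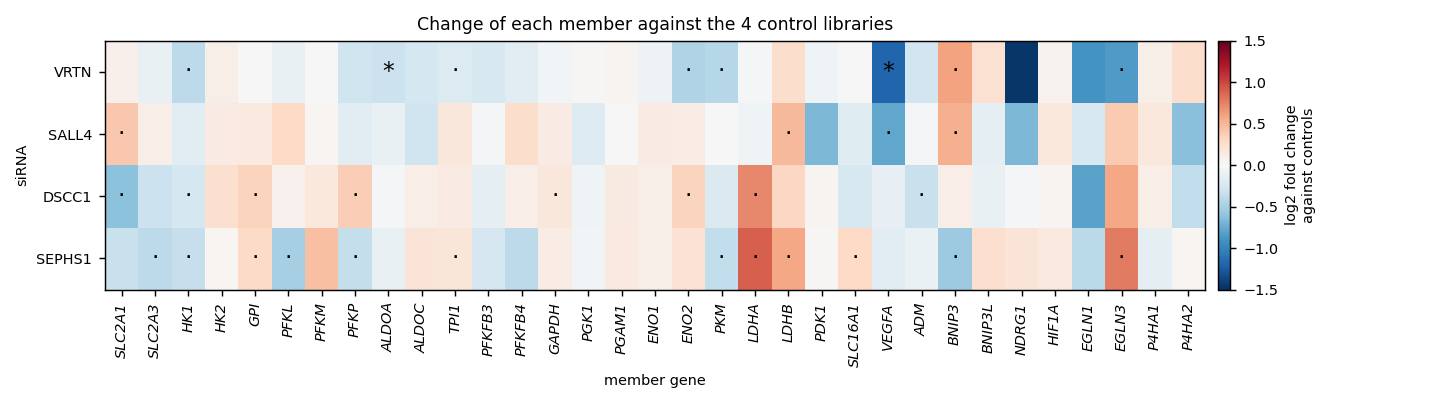
Log2 fold changes of the members (columns, by role) in the 4 knockdowns (rows) against the 4 control libraries, with colours limited at 1.5 in either direction; a star marks an adjusted p under 0.05 and a dot an unadjusted p under 0.05. The only stars are VEGFA and ALDOA after VRTN siRNA; CA9, ANKRD37 and SLC16A3 are left out for low counts.

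HIF1A mRNA (chromosome 14, 61695513 to 61748259, plus strand) measured 142, 163 and 126 CPM in the VRTN libraries. It measured 143 and 136 CPM in the Luciferase libraries and 139 and 137 in the Control libraries. The VRTN libraries lay on both sides of the narrow control range. The log2 fold change was 0.05 (SE 0.11, 95% interval -0.17 to 0.27, edgeR adjusted p = 0.978), an interval that stops short of ALDOA's change of -0.32 and of a rise of the same size.

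None of the remaining hypoxia effectors passed the test after VRTN siRNA. ADM measured 44.9, 35.2 and 39.8 CPM in the VRTN libraries and 60.8, 39.9, 48.2 and 46.3 in the controls, and its log2 fold change was -0.29 (SE 0.16, edgeR adjusted p = 0.585). The groups overlapped, with Luciferase replicate 1 the highest of all. BNIP3, a mitochondrial protein that promotes mitophagy, measured 20.5, 23.0 and 22.2 CPM against 18.03, 15.3, 13.1 and 11.7. It was the 1 member whose VRTN libraries all lay above the controls, and its log2 fold change was 0.61 (SE 0.21, adjusted p = 0.21). Its value is uncertain too, with 44 annotated pseudogenes that held 10.5% of the counts given to the gene and its pseudogenes together. Its paralog BNIP3L differed by 0.23 (95% interval -0.33 to 0.79).

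The lowest members allow little to be said. NDRG1, a stress and hypoxia response gene on chromosome 8, measured 0.652, 0.843 and 0.576 CPM in the VRTN libraries. The controls held 2.22, 1.12, 1.07 and 3.30 CPM, all above them. Its log2 fold change of -1.46 carried an SE of 0.99 (edgeR adjusted p = 0.684). CA9 had 0 counts in all 3 VRTN libraries, 2 in each replicate 1 of the controls and 0 in each replicate 2, so both groups were at or under the floor and no fold is given. Its highest libraries were SEPHS1 replicate 3 with 18 counts and SALL4 replicate 3 with 14, and 38.5% of its exon bases lie under a gene on the opposite strand, from which its reads cannot be told apart without strand. ANKRD37 had 72 counts over all 16 libraries and 9 libraries at 0, and SLC16A3, the lactate exporter MCT4, had 181 counts and 5 libraries at 0.

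EGLN3, the prolyl hydroxylase whose gene HIF1A is known to induce, measured 2.94, 4.56 and 9.95 CPM in the VRTN libraries. The controls held 8.73, 13.3, 9.79 and 10.1 CPM. VRTN replicate 3 fell inside the control range and the other VRTN replicates lay below it. The log2 fold change was -0.85 (SE 0.34, edgeR adjusted p = 0.367). EGLN1, the general oxygen sensor of the pair, differed by -0.89 (95% interval -2.97 to 1.19) at 0.795 ± 0.632 CPM against 1.49 ± 0.628. The collagen prolyl hydroxylases P4HA1 and P4HA2 differed by 0.09 and 0.26 (edgeR adjusted p = 1 and 0.965).

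Set directly against the other knockdowns, without the controls, VRTN siRNA gave lower levels of EGLN3, ENO2, VEGFA, TPI1 and PFKP in at least 1 contrast, and a higher level of BNIP3 in 1. SALL4 siRNA shares the 48 h harvest with VRTN siRNA. DSCC1 and SEPHS1 were harvested at 72 h, so in those contrasts the target and the harvest time cannot be told apart. The 3 contrasts share the VRTN libraries and are given side by side for that reason. The regions just upstream of 3 of these genes are printed first, because each of the 3 has a single start in the RefSeq promoter table (GRCh38.p14) and was called in at least 1 contrast. Each run gives 250 bases up to that start, 5′ to 3′ on the gene's strand, with ACGTG or GCGTG, the core letters of the hypoxia response element, in capitals on either strand (CACGT and CACGC are their reverse complements).
ENO2, chr12:6914330-6914579, plus strand: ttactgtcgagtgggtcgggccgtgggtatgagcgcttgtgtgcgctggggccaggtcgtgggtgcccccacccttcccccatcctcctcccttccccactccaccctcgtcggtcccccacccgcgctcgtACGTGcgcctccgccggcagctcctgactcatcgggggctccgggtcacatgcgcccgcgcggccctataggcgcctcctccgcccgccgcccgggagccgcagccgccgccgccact
EGLN3, chr14:33951075-33951324, minus strand: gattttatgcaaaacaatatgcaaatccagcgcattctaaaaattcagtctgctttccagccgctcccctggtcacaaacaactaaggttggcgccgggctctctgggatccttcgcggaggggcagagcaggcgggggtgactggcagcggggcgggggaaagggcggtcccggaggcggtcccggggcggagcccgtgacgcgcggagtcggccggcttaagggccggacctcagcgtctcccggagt
BNIP3, chr10:131981924-131982173, minus strand: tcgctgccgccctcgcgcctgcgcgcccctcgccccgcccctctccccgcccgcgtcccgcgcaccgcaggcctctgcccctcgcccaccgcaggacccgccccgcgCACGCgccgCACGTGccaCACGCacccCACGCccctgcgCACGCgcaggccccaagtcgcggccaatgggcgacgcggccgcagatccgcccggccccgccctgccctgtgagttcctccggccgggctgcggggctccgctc
The window of ENO2 holds the letters ACGTG in 1 place, that of EGLN3 holds neither, and that of BNIP3 holds several, one of them CACGTG, which reads the same on both strands. For 31 members 58 windows were listed, each searched over the 250 bases before a start. Of these, 37.9% held ACGTG and 29.3% GCGTG, beside 18.5% and 32.2% of all 35116 windows in the table. The members' windows also held a median of 22 CG dinucleotides beside 11 over all windows, and both motifs contain CG. A match is a description of letters and no match says nothing of binding elsewhere.

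Against SALL4 siRNA, at the same harvest time, 2 of 36 members were called and both were lower after VRTN siRNA, beside 1.73% of all genes lower, 0.703% higher and 2.44% in either direction. At an unadjusted p under 0.05, 5 members were lower (12.3% of all genes passed in either direction). The VRTN libraries lay wholly below the SALL4 libraries for 8 members, beside 8.63% of all genes, and wholly above for 1, beside 7.6%. TPI1 measured 479, 484 and 520 CPM in the SALL4 libraries, all above the 376 to 384 CPM of the VRTN libraries, with a log2 difference (VRTN minus SALL4) of -0.38 (SE 0.10, edgeR adjusted p = 0.0247). ENO2 measured 53.2, 48.7 and 55.3 CPM in the SALL4 libraries against 31.7 to 40.3, a log2 difference of -0.56 (SE 0.15, adjusted p = 0.0439). Both calls were lost without some single libraries, with adjusted p of up to 0.0926 for TPI1 and 0.181 for ENO2. EGLN3 differed by -1.25 (SE 0.36, adjusted p = 0.0581) and overlapped, since the SALL4 libraries held 8.10, 9.84 and 23.6 CPM. VEGFA differed by -0.40 (95% interval -0.94 to 0.13, adjusted p = 0.549), so the test did not separate its level after the 2 knockdowns.

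Against DSCC1 siRNA, 4 of 36 members were lower after VRTN siRNA and none was higher, beside 0.936% of all genes lower, 0.501% higher and 1.44% in either direction. Unadjusted, 10 were lower and 2 higher, 33.3% of the members beside 11.1% of all genes. The groups did not overlap for 12 members with the VRTN libraries below, beside 9.5% of all genes, and for 2 with them above, beside 8.36%. ENO2 measured 60.7, 63.9 and 60.3 CPM in the DSCC1 libraries, with a log2 difference of -0.79 (SE 0.15, edgeR adjusted p = 0.00365). This call held on leaving out each library in turn, with adjusted p from 0.00798 to 0.0332. VEGFA measured 18.2, 13.5 and 13.3 CPM in the DSCC1 libraries, above all VRTN libraries, with a difference of -1.07 (SE 0.26, adjusted p = 0.0298). EGLN3 measured 18.7, 15.0 and 13.5 CPM there, also above all VRTN libraries, with a difference of -1.43 (SE 0.36, adjusted p = 0.0332).

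PFKP, the platelet-type isoform of phosphofructokinase, the enzyme of the main controlled step of glycolysis, measured 62.2, 48.1 and 53.2 CPM in the DSCC1 libraries and 34.4, 31.2 and 37.7 in the VRTN libraries. The groups did not overlap and the log2 difference was -0.66 (SE 0.18, edgeR adjusted p = 0.0481). The control libraries lay between them, at 38.8 to 45.3 CPM. Without any 1 of the 6 libraries compared, the adjusted p for PFKP was 0.0593 to 0.269. The calls for VEGFA and EGLN3 in this contrast were likewise lost without any 1 of 5 of the 6 libraries, all but VRTN replicate 3, with adjusted p of 0.0613 to 0.204 for VEGFA and 0.0869 to 0.263 for EGLN3.

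Against SEPHS1 siRNA, 4 of 36 members were lower after VRTN siRNA, beside 0.87% of all genes, and 1 was higher, beside 1.32% (2.19% in either direction). Unadjusted, 9 were lower and 1 higher, 27.8% of the members beside 12.6% of all genes. All VRTN libraries lay below all SEPHS1 libraries for 9 members, beside 6.88% of all genes, and above for 2, beside 8.41%. BNIP3 was the higher one: the SEPHS1 libraries held 10.6, 10.5 and 8.29 CPM and the VRTN libraries 20.5 to 23.0, a log2 difference of 1.16 (SE 0.23, edgeR adjusted p = 0.00316). It kept its call without each library in turn, with adjusted p from 0.00821 to 0.0265. The control libraries, at 11.7 to 18.03 CPM, lay between these groups, and neither knockdown passed the test against them. EGLN3 measured 18.3, 21.2 and 14.4 CPM in the SEPHS1 libraries, the reverse arrangement, with a difference of -1.63 (SE 0.36, adjusted p = 0.0093). Leaving out VRTN replicate 1 ended the call (adjusted p = 0.104), as did leaving out replicate 2 (0.0817).

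ENO2 measured 52.0, 52.4 and 65.2 CPM in the SEPHS1 libraries, with a log2 difference of -0.67 (SE 0.15, edgeR adjusted p = 0.0131), and was lost without SEPHS1 replicate 3 (adjusted p = 0.101), VRTN replicate 1 (0.0775) or VRTN replicate 3 (0.0643). TPI1 measured 499.8, 477 and 516 CPM, with a difference of -0.39 (SE 0.10, adjusted p = 0.023). VEGFA measured 16.005, 12.2 and 15.1 CPM, with a difference of -1.01 (SE 0.26, adjusted p = 0.0334). In all 3 genes every SEPHS1 library was above every VRTN library. Without single libraries the adjusted p rose to as much as 0.115 for TPI1 and 0.221 for VEGFA.

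**Figure D4:**
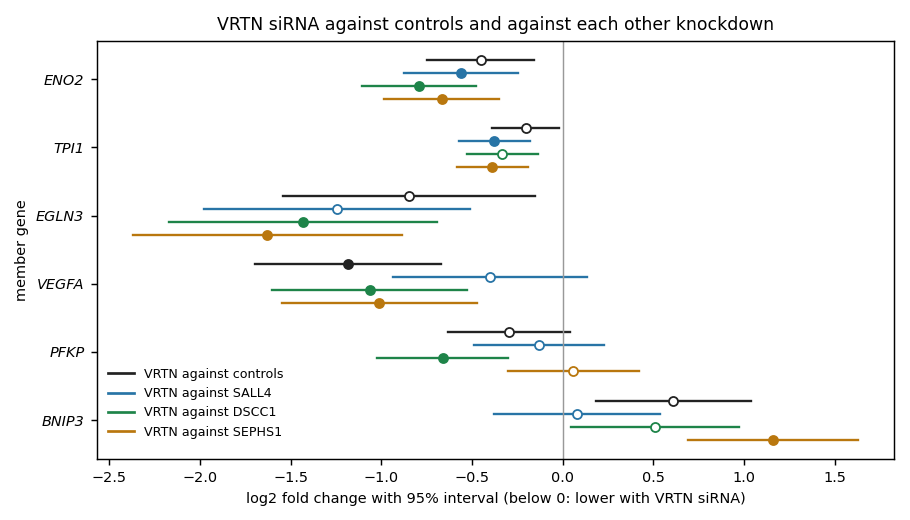
Log2 differences of ENO2, TPI1, EGLN3, VEGFA, PFKP and BNIP3 between VRTN siRNA and the controls, SALL4, DSCC1 and SEPHS1 siRNA; bars are 95% intervals and filled points have an adjusted p under 0.05. EGLN3 lies to the lower side in all 4 contrasts and is filled against DSCC1 (-1.43) and SEPHS1 (-1.63).

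After SALL4 siRNA no member was called by edgeR's quasi-likelihood test, beside 2.98% of all genes (1.85% higher and 1.13% lower). At an unadjusted p under 0.05, 3 members were higher and 1 was lower, beside 13.1% of all genes. The SALL4 libraries lay wholly above the controls for 5 members, beside 6.82% of all genes, and wholly below for 1, beside 6.83%. DESeq2 called 1 member (TPI1) and limma-voom called 4 (ALDOA, GAPDH, ENO1 and VEGFA). The lower one was VEGFA, with 10.2, 9.54 and 8.61 CPM in the SALL4 libraries, all below the controls, and a log2 difference of -0.78 (SE 0.25, adjusted p = 0.0819 with edgeR and 0.0339 with limma-voom). The SALL4 and VRTN comparisons share the same controls and the 48 h harvest. After the 72 h knockdowns VEGFA differed from the controls by -0.12 (DSCC1) and -0.17 (SEPHS1), and neither was called. Whether the VEGFA levels follow the target or the harvest time was not tested. BNIP3 measured 21.5, 20.8 and 19.9 CPM, all above the controls, and differed by 0.53 on the log2 scale (SE 0.21, adjusted p = 0.226). LDHB measured 25.3, 33.4 and 38.2 CPM, also all above them, with 0.48 (SE 0.20, adjusted p = 0.254).

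SLC2A1 measured 346, 379 and 143 CPM in the SALL4 libraries and 242, 186, 272 and 176 in the controls. SALL4 replicates 1 and 2 stood above every other library and replicate 3 near the lowest. The mean log2 fold change was 0.40 (SE 0.19, edgeR adjusted p = 0.35). The call turned on single libraries, since SLC2A1 was called when SALL4 replicate 3, Luciferase replicate 1 or Control replicate 1 was left out. HIF1A measured 148, 158 and 160 CPM, all above the controls, with 0.16 (SE 0.11, adjusted p = 0.57), and ADM and NDRG1 overlapped the controls, with -0.03 (SE 0.16, adjusted p = 0.999) and -0.67 (SE 0.95, adjusted p = 0.88).

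After DSCC1 siRNA no member was called by edgeR, in a comparison in which 0.0455% of all genes were. Unadjusted, 5 members were higher and 3 lower, 22.2% of the members beside 5.84% of all genes, and DESeq2 and limma-voom called 1 each (GPI and GAPDH). All DSCC1 libraries lay above all controls for 8 members, beside 4.61% of all genes, and below for 2, beside 4.49%. SLC2A1 measured 142, 141 and 146 CPM, close together and below every control, and differed by -0.61 on the log2 scale (SE 0.19, edgeR adjusted p = 0.492). LDHA measured 33.1, 32.5 and 31.1 CPM, above every control, with 0.72 (SE 0.28, adjusted p = 0.774). GPI measured 338, 325 and 352 CPM, above every control as well, with 0.34 (SE 0.11, adjusted p = 0.486). ADM, at 33.5, 47.6 and 35.1 CPM, overlapped the controls at -0.33 (SE 0.16, adjusted p = 0.843). NDRG1 held 2.404, 1.84 and 1.39 CPM.

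After SEPHS1 siRNA no member was called by edgeR, beside 1.53% of all genes (0.602% higher and 0.931% lower), with 6 higher and 6 lower at an unadjusted p under 0.05. That is 33.3% of the members beside 12.8% of all genes. All SEPHS1 libraries lay above all controls for 6 members, beside 5.25% of all genes, and below for 5, beside 7.76%. DESeq2 called 2 (HK1 and TPI1) and limma-voom none. The lactate dehydrogenases were on the higher side: LDHA measured 45.9, 26.0 and 37.3 CPM (log2 fold change 0.89, SE 0.28, edgeR adjusted p = 0.115) and LDHB 40.1, 31.6 and 32.4 CPM (0.59, SE 0.20, adjusted p = 0.152). Lower values were measured for HK1, with 121, 129 and 126 CPM (-0.34, SE 0.11, adjusted p = 0.137), and PKM, with 770.4, 778 and 805 CPM (-0.37, SE 0.12, adjusted p = 0.126). Other kinases of the pathway went both ways. PFKM, the muscle phosphofructokinase, was at 0.46 (edgeR adjusted p = 0.43) and HK2 at 0.03 (adjusted p = 1). The phosphofructokinases PFKL and PFKP were at -0.50 (adjusted p = 0.229) and -0.355 (0.363). The fructose-2,6-bisphosphate enzymes PFKFB3 and PFKFB4 were at -0.25 (0.639) and -0.39 (0.473). In HK1, PKM and PFKL every SEPHS1 library was below every control, and in LDHB every one was above.

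The hypoxia effectors after SEPHS1 siRNA went no single way. BNIP3 was below every control (-0.55, SE 0.22, edgeR adjusted p = 0.249) and EGLN3 above every control (0.78, SE 0.33, adjusted p = 0.299). HIF1A measured 154, 154 and 152 CPM, above every control, at 0.14 (SE 0.11, adjusted p = 0.617). ADM held 47.6, 43.3 and 45.2 CPM, inside the control range (-0.10, SE 0.16, adjusted p = 0.877). NDRG1 held 0, 1.71 and 4.85 CPM, the widest spread of any group for this gene.

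Among the controls, more members were separated by replicate number than by siRNA. Control against Luciferase siRNA gave 0 called genes of 19772 by edgeR, 0% of all genes, and 1.07% of all genes and 0 of 36 members passed an unadjusted p under 0.05. DESeq2 and limma-voom also called 0 members. The Control libraries lay wholly above the Luciferase libraries for 4 members, beside 14.7% of all genes, and wholly below for 4, beside 13.6%. SLC2A3 measured 558 and 565 CPM in replicate 1 of Luciferase and Control and 331 and 385 in replicate 2. SLC2A1 followed the same arrangement, with 242 and 272 CPM against 186 and 176, as did PKM with 1144 and 1098 against 898 and 923. LDHA was arranged the other way, with 10.1 and 16.1 CPM in replicate 1 and 26.7 and 25.5 in replicate 2. Both replicates 1 were above both replicates 2 for 14 members, beside 18.7% of all genes, and below for 9, beside 17.5%.

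Replicate 3 of the SALL4 and VRTN groups stood apart for some of the same genes. SLC2A3 measured 557 and 568 CPM in SALL4 replicates 1 and 2 and 356 in replicate 3, and 503, 448 and 324 in VRTN replicates 1 to 3. LDHA measured 12.5, 12.2 and 31.7 CPM in the SALL4 replicates and 17.7, 15.96 and 24.5 in the VRTN replicates. The DSCC1 libraries were even by comparison, with SLC2A3 at 370.3, 376 and 357 CPM and LDHA at 31.1 to 33.1. The labels name no batch that these replicates share, and whether culture or processing ran with them was not tested. Against all 4 controls edgeR called no member after DSCC1 siRNA or SEPHS1 siRNA, beside 0.0455% and 1.53% of all genes. A fit with replicate 1 of the controls alone leaves 1 library for each control siRNA. Its calls are listed only among the alternatives in the last section.

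**Figure D5:**
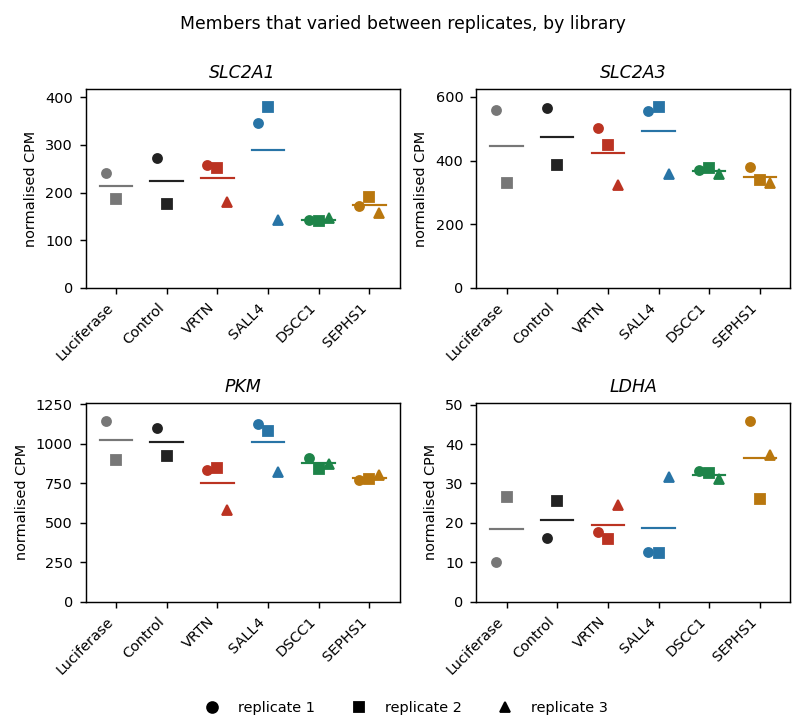
CPM of SLC2A1, SLC2A3, PKM and LDHA in every library, by group; marker shapes give the replicate number and lines the group means. In the controls SLC2A3 is at 558 and 565 CPM in replicate 1 and at 331 and 385 in replicate 2, while LDHA is at 10.1 and 16.1 against 26.7 and 25.5.

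Beyond the 36, a list of 92 further genes of glucose use and the hypoxia response was read, of which 84 were tested. After VRTN siRNA, 2 of the 84 rose and none fell, beside 0.445% and 0.683% of all genes, with a median log2 fold change of 0.01. AK4, a mitochondrial adenylate kinase known as a HIF1A target, measured 142, 137 and 132 CPM in the VRTN libraries against 74.9 ± 12.6 (n = 4) in the controls, a log2 fold change of 0.88 (SE 0.14, edgeR adjusted p = 0.000202). ERO1A, which drives disulfide formation in the endoplasmic reticulum and is also induced in hypoxia, stood at 49.2 ± 1.08 CPM against 29.6 ± 4.71, a rise of 0.74 (SE 0.17, adjusted p = 0.0184). Both rose in the libraries in which VEGFA fell.

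In the same list, 4 genes rose and 5 fell after SALL4 siRNA, beside 1.85% and 1.13% of all genes. None was called after DSCC1 siRNA, beside 0.0455%. After SEPHS1 siRNA 2 rose and 2 fell, beside 0.602% and 0.931%. In the SALL4 libraries the smallest p belonged to HMOX1, the haem oxygenase (-1.87, SE 0.22, edgeR adjusted p = 8.26e-07), PCK2, the mitochondrial PEP carboxykinase (-1.36, SE 0.22, 0.00021), BHLHE40, a transcriptional repressor (-1.58, SE 0.26, 0.000249), CITED2, a competitor of HIF1A for its coactivators (1.14, SE 0.20, 0.000486), and MIF, a cytokine (0.82, SE 0.20, 0.0183). In the SEPHS1 libraries MIF rose by 1.02 (SE 0.20, edgeR adjusted p = 0.00498). PDHB, a subunit of pyruvate dehydrogenase, rose by 1.04 (SE 0.26, 0.0362) and PDK2, a kinase that switches that enzyme off, fell by 0.67 (SE 0.17, 0.0328).

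Markers of some other cell types differed in level between the VRTN and control libraries. The summed level of 6 mesendoderm markers was 18.9 to 22.0 CPM after VRTN siRNA and 7.80 to 13.5 in the controls. Of that list FOXA2, at 9.002 to 11.8 CPM against 3.12 to 6.50, did not overlap the controls, while MIXL1, EOMES, TBXT and SOX17 overlapped the controls and GSC was at 0 in all VRTN libraries. The summed level of 6 fibroblast markers was 529 to 859 CPM after VRTN siRNA and 520 to 1317 after SALL4 siRNA, against 1568 to 1812 in the controls. That difference lay in COL1A1, at 733, 808 and 494 CPM in the VRTN libraries and 1534 to 1760 in the controls. COL1A2 overlapped the controls, at 45.3 ± 12.4 CPM after VRTN siRNA and 42.1 ± 8.13 in the controls, and DCN, LUM and POSTN were at or near 0. Neuroectoderm and trophoblast marker sums stayed under 6 CPM in the VRTN and control libraries. The part of these differences in the VEGFA and ALDOA results was not tested.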

How the data were processed

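Polyadenylated RNA from 16 H9 libraries was prepared with the SENSE kit of Lexogen and sequenced from 1 end on a NextSeq 500, per the labels' protocols. The deposited table holds raw read counts per Ensembl gene, made by the authors with STAR 2.4.0.1, HTSeq 0.9.1 and GRCh38, per the submitters' processing notes. The annotation release, the strand setting and the treatment of shared reads are not given in the sources used here. Symbols came from a gene name table (56558 identifiers) and GENCODE 29 (497), and 3620 had none. GENCODE 29 gave positions and exon lengths.

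Genes were filtered with filterByExpr and scaled by TMM. Differences were tested with the quasi-likelihood method of edgeR 4.0.16 (R 4.3.3), with 6 groups in 1 fit and Benjamini-Hochberg adjustment over 19772 genes, and a gene with an adjusted p under 0.05 was called. The reference of each knockdown was the average of both control groups, here called the controls. SEs were derived from the fold change and its F statistic. No member list was tested as a set. Depth was 18597262 to 28662389 counts, and reads carry no molecular identifiers.

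The members and lists were chosen with earlier results of these data known. The naming rule gave in full the members called against controls, HIF1A, VEGFA, ADM, CA9, BNIP3 and NDRG1, and of other pathway genes at most 5 called per knockdown, of which 1 is not reported here. Other members given in full were chosen after their values were seen. The labels call the replicates biological, and p-values measure the spread between these samples. Alternatives were DESeq2 size factors, upper quartile scaling, no filter and a stricter one, a replicate block, and only the groups compared. Further ones were either control siRNA or replicate number alone, DESeq2 1.42.0, limma-voom (limma 3.58.1) and leaving out each library. The limma-voom fit used sample quality weights, which give less weight to more variable libraries. The pipeline was tested on simulated data with 200 genes changed in the VRTN group. It recovered 42% of the 2-fold and 60% of the 4-fold changes, and 8.11% of its calls were false. For genes of at least 16 CPM it recovered 97.1% and 100%. Changes smaller than 2-fold, such as that of ALDOA (79.8% of the control level after VRTN siRNA), were not simulated. VEGFA, with a mean of 12.7 CPM over all libraries, lay under the 16 CPM limit.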

Additional observations from a re-analysis of the deposited data

Results flagged for a closer look

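For 6 members the change after VRTN siRNA differed from that after another knockdown, by the direct contrast of the knockdowns with edgeR's quasi-likelihood test (adjusted p under 0.05, values as log2 differences, VRTN minus the other). Against SALL4 siRNA, harvested at the same time, TPI1 differed by -0.38 and ENO2 by -0.56. Against DSCC1 siRNA, PFKP differed by -0.66, ENO2 by -0.79, VEGFA by -1.07 and EGLN3 by -1.43. Against SEPHS1 siRNA, TPI1 differed by -0.39, ENO2 by -0.67, VEGFA by -1.01, EGLN3 by -1.63 and BNIP3 by 1.16. The DSCC1 and SEPHS1 contrasts also differ in harvest time. ENO2, EGLN3, TPI1, PFKP and BNIP3 were not called against the control libraries by edgeR (DESeq2 called TPI1 after VRTN, SALL4 and SEPHS1 siRNA), and the means of the groups in these contrasts lay on opposite sides of the control mean. No group holds the 4 samples needed to look for a single outlying library.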

How the results depend on the processing

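The alternatives are the settings listed in the account of the processing above. The VRTN comparison called 2 members and 223 genes. It called 1 member with DESeq2 size factors, with only the groups compared and against Control alone, 0 against Luciferase alone and against replicate 2 of the controls, 5 with DESeq2 (HK1, ALDOA, TPI1, PKM and VEGFA) and 4 with limma-voom (HK1, ALDOA, PKM and VEGFA). Its genes were 397 without a filter, 89 against Luciferase alone, 95 against Control alone, 392 with DESeq2 and 348 with limma-voom. SALL4 siRNA (0 members, 590 genes) gave 1 member without a filter and against replicate 2 of the controls, 1 with DESeq2 and 4 with limma-voom, and 349 genes with only the groups compared, 236 against Luciferase alone, 280 against Control alone, 342 against replicate 1 of the controls and 1291 with limma-voom.

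DSCC1 siRNA (0 members, 9 genes) gave 1 member without a filter, with DESeq2 and with limma-voom and 3 against replicate 1 of the controls. Its genes were 99 without a filter, 2 with a stricter one, 37 with only the groups compared, 2 against either control siRNA alone, 109 and 4 against replicates 1 and 2 of the controls, 47 with DESeq2 and 41 with limma-voom. SEPHS1 siRNA (0 members, 303 genes) gave 3 members without a filter and against replicate 1 of the controls and 2 with DESeq2, and 516 genes without a filter, 198 with only the groups compared, 128 against Luciferase alone, 103 against Control alone, 137 against replicate 2 of the controls, 519 with DESeq2 and 158 with limma-voom. VRTN against SALL4 (2 members) gave 4 without a filter, 0 with only the groups compared and 5 with DESeq2 and with limma-voom, VRTN against DSCC1 (4) gave 2 with a stricter filter, 7 with DESeq2 and 8 with limma-voom, and VRTN against SEPHS1 (5) gave 1 with only the groups compared (BNIP3).

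The replicate block was tried because the groups share replicate numbers. Deviations from the group means, over all genes tested, correlated at -0.052 to 0.09 for 36 pairs of same-numbered libraries. Differently numbered pairs gave -0.096 to 0.096. In groups of 2 replicates the deviations mirror each other, so these values cannot decide whether the numbers pair the libraries. With the replicate block, SALL4 siRNA gave 2 members (SLC2A1 higher, ALDOC lower), VRTN against SALL4 gave 4 (TPI1, ENO2, PKM and EGLN3) and DSCC1 siRNA 15 genes, and ADM in SALL4 turned to 0.0092.

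Leaving out 1 library at a time gave 135 to 271 genes for VRTN, 275 to 924 for SALL4, 2 to 98 for DSCC1 and 135 to 472 for SEPHS1. Members called ran from 0 to 2 for VRTN, 0 to 1 for SALL4, 0 to 2 for DSCC1, 0 to 3 for SEPHS1, 0 to 3 for VRTN against SALL4, 1 to 4 against DSCC1 and 1 to 5 against SEPHS1. Small, uncalled log2 fold changes changed sign: ADM in SALL4 (0.0147 against Control alone, 0.15 against replicate 2 of the controls, 0.0248 with limma-voom, -0.17 to 0.14 on leaving out libraries), ADM in SEPHS1 (0.0787 against replicate 2, -0.24 to 0.0638), ALDOA in DSCC1 (0.0302 against Luciferase alone, 0.006 against replicate 2, -0.0875 to 0.0246), BNIP3 in DSCC1 (-0.11 against Luciferase alone, -0.0775 to 0.29), HIF1A in VRTN (-0.05 to 0.13), NDRG1 in DSCC1 (0.17 against Luciferase alone, 0.29 against replicate 1, 0.10 with limma-voom, -0.32 to 0.49) and NDRG1 in SEPHS1 (-0.0038 against Control alone, -1.35 with limma-voom, -1.14 to 0.78). The cause of these differences was not tested. Scaling moved the median of all genes by at most 0.0292 on the log2 scale. Depth limits CA9, ANKRD37, SLC16A3, EGLN1 and NDRG1.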
